A study of Nicotiana tabacum with 36 samples.

Results

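The shoot apex of tobacco (*Nicotiana tabacum* cv. K326) was compared at ZT12, counted in hours after dawn, with the same tissue at dawn, ZT0. The members were chosen by the labels of tissue and time-point alone, which gave 3 libraries at each of the 2 times, 6 of the 36 libraries of the series. All plants were 56 days old and grew in long days of 18 h of light and 6 h of darkness, so ZT0 ends the night and ZT12 lies in the light, 6 h before dusk. No genotype, treatment or agent differed between the groups, and the 3 libraries of a group are biological replicates. RNA was extracted from a whole tissue, so a change in the RNA of a cell and a change in the share of cells of a type cannot be told apart in any value given here. The values describe RNA levels of predicted gene models of assembly Nitab4.5, of which 69500 were counted. The files do not pair the IDs of these models with gene names, and 0 of the IDs were found in RefSeq's table of tobacco genes. Therefore no role is given to any gene model, the marker genes of a meristem were not checked, and 4 gene models stand for the rest by ID.

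The shoot apex holds the apical meristem, a group of dividing cells from which leaves and stem arise, together with the youngest leaves around it. In plants a large share of transcripts follows the day through a circadian clock, a set of regulators that repress one another in turn, and through light itself. Some clock components are known to peak around dawn and to be repressed later in the day, while others rise in the second part of the day, so dawn and the later hours of light lie at opposite sides of such a cycle. The comparison asks which gene models stand at different levels at these opposite times in the growing tip, and whether whole shoot and root show the same.

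Each of the 6 libraries had a total expected count, the number of reads that RSEM assigns to gene models, of between 10608197 and 21265992. Each correlated better with the other shoot apex libraries than with those of whole shoot or of root (mean correlation of log2(TPM + 1) across gene models, in 6 of 6). TPM is the expected count divided by the length of the gene model and scaled to the same sum in each library. Among the 6, 1 library stood apart because more of its reads lay on long gene models. The inverse of model length in kilobases, averaged over the expected counts, was 0.702 in ZT12 replicate 1, against 0.884 and 0.891 in the other two of ZT12 and 0.874, 0.797 and 0.979 at ZT0. A low value stands for counts on longer models. In the same library the 10 most counted gene models took 1.42% of the total, against 3.05% to 3.93% in the other 5. Low inverse lengths were also found outside the 6. In shoot apex they were 0.696 and 0.704 in ZT6 replicates 1 and 3 and 0.675 in ZT18 replicate 3. In whole shoot they were 0.693 in ZT0 replicate 3, 0.705 in ZT6 replicate 3 and 0.690 in ZT12 replicate 1. In root they were 0.706 and 0.685 in ZT0 replicates 2 and 3, against 0.874 in replicate 1. At ZT12 root had 0.670 in replicate 3, against 0.828 and 0.815 in replicates 1 and 2. Root also had 0.703 and 0.659 in ZT6 replicates 2 and 3 and 0.648 in ZT18 replicate 1. Several of the results below, but not all, are given with and without ZT12 replicate 1.

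At ZT12, 1168 gene models were higher and 1340 lower than at dawn, out of 44594 tested, which is 2.62% and 3.0%, or 5.62% together. The test was the quasi-likelihood test of edgeR, and a gene model passed at a Benjamini-Hochberg adjusted p under 0.05, adjusted over all gene models tested. Such gene models are called higher or lower in what follows. Falls were deeper than rises at the median. The median log2 fold change was 1.43 among the higher gene models (quartiles 1.02 and 2.13) and -1.88 among the lower ones (quartiles -2.71 and -1.32), against 0.03 over all tested. A log2 fold change of at least 2 in size, a 4-fold difference, was found in 332 of the higher (28.4%) and in 612 of the lower gene models (45.7%). A log2 fold change of at least 4 in size was found in 82 of the higher (7.02%) and 104 of the lower gene models (7.76%), which are similar shares. In 19 of the higher gene models every ZT0 library was at an expected count of 0, and in 17 of the lower ones every ZT12 library, so their fitted fold changes are no bound. With these set to the fold that 3 counts over the group would give, the medians were 1.42 and -1.88. Without ZT12 replicate 1 the numbers were 988 higher and 1150 lower. They depended on 3 other libraries by more than 1.5 times, with 720 higher and 841 lower without ZT0 replicate 1, 750 higher and 1053 lower without ZT0 replicate 2, and 823 higher and 730 lower without ZT12 replicate 3. Without that last library the higher gene models were thus the more numerous.

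**Figure D1:**
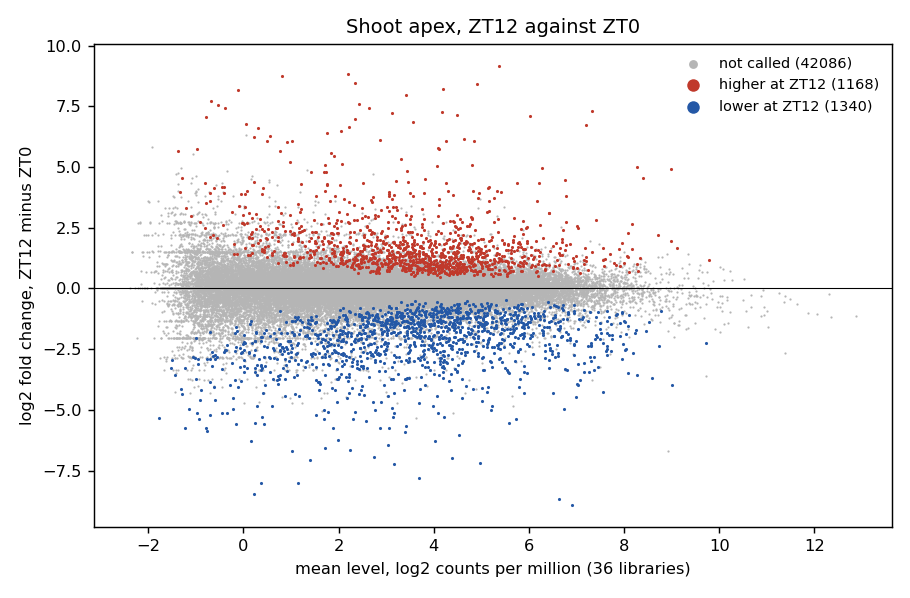
Each point is 1 of 44594 gene models, with its mean level over the 36 libraries (log2 CPM, counts scaled to the size of the library) on the x axis and the log2 fold change of shoot apex, ZT12 minus ZT0, on the y axis. The 1168 higher (red) and 1340 lower gene models (blue) lie on both sides at every level, and a few reach a log2 fold change of more than 8 in size.

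The largest named rise was that of Nitab4.5_0000198g0120.1, a gene model of 1734 bases on scaffold 0000198. In the 3 dawn libraries it stood at 0.18, 0.30 and 0.11 TPM, from expected counts of 3.00, 5.43 and 2.33. At ZT12 it stood at 109.93, 61.71 and 55.06 TPM. It was thus close to the limit of detection at dawn and among well expressed gene models 12 h later, with no overlap of the groups. The means were 0.197 ± 0.0961 and 75.6 ± 29.9 TPM (SD, n = 3), and the log2 fold change was 8.42 (standard error 0.46, adjusted p = 4.96e-13, edgeR's quasi-likelihood test). At ZT6 the shoot apex libraries held 8.32, 4.11 and 7.40 TPM, and at ZT18 they held 9.29, 7.26 and 14.42 TPM. Both of these times lay between dawn and ZT12 in every library. ZT18 and ZT6 were not told apart by the test, with a log2 difference of 0.71 (standard error 0.32, adjusted p = 0.448, edgeR).

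The next rise by the same rule was Nitab4.5_0000099g0200.1, a model of 3741 bases on scaffold 0000099. It went from 0.57, 0.67 and 0.23 TPM at dawn to 164.03, 62.07 and 49.27 TPM at ZT12. ZT12 replicate 1, the ZT12 library with counts on longer models, was the highest of its group, and the groups did not overlap with or without it. The means were 0.49 ± 0.231 and 91.8 ± 62.9 TPM (SD, n = 3), and the log2 fold change was 7.31 (standard error 0.63, adjusted p = 3.98e-09, edgeR's quasi-likelihood test). Without ZT12 replicate 1 it was 6.79. At ZT6 it had reached 51.70, 24.05 and 41.06 TPM, and at ZT18 it stood at 4.14, 3.45 and 15.76 TPM. The level at ZT18 was below that at ZT6 by a log2 difference of -2.36 (standard error 0.50, adjusted p = 0.00841, edgeR), in libraries that the comparison of ZT12 with dawn does not use. At ZT6, replicates 1 and 3 had counts on longer models (inverse length 0.696 and 0.704, against 0.88 in replicate 2). At ZT18 only replicate 3 had (0.675, against 0.932 and 0.934). The effect of this on the difference, in a model of 3741 bases, was not tested.

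The deepest fall by the rule was that of Nitab4.5_0005359g0030.1, 2299 bases long and on scaffold 0005359. Its dawn libraries held 326.42, 327.71 and 182.78 TPM, and its ZT12 libraries 0.84, 0.55 and 0.58 TPM, from expected counts of 27, 17 and 26. One of the more abundant transcripts of the shoot apex at dawn (405th of the 44594 tested by mean TPM of the higher group) was therefore nearly gone at ZT12. The means were 279 ± 83.3 and 0.657 ± 0.160 TPM (SD, n = 3), with a log2 fold change of -8.91 (standard error 0.39, adjusted p = 7.35e-15, edgeR's quasi-likelihood test). Most of the fall had taken place by ZT6, when the libraries held 17.92, 8.04 and 13.91 TPM. At ZT18 they held 3.25, 4.95 and 5.78 TPM, each above the 3 libraries of ZT12.

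The second fall was that of Nitab4.5_0007792g0010.1, 2140 bases long, on another scaffold, 0007792. It stood at 267.09, 296.57 and 153.77 TPM at dawn and at 0.70, 0.70 and 0.58 TPM at ZT12, from expected counts of 21, 20 and 24. The log2 fold change was -8.67 (standard error 0.41, adjusted p = 2.64e-14, edgeR's quasi-likelihood test). The levels of both falling models followed each other closely. Replicate 3 was the lowest dawn library for both, and the log2 ratio of the second to the first (TPM + 0.1) had a median of -0.16 over the 36 libraries, with a range of -1.53 to 0.78. They parted most at ZT18 in the shoot apex, where the second held 1.06, 2.37 and 2.97 TPM. RSEM shares a read between models that it fits equally well, and whether these models share sequence was not tested.

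**Figure D2:**
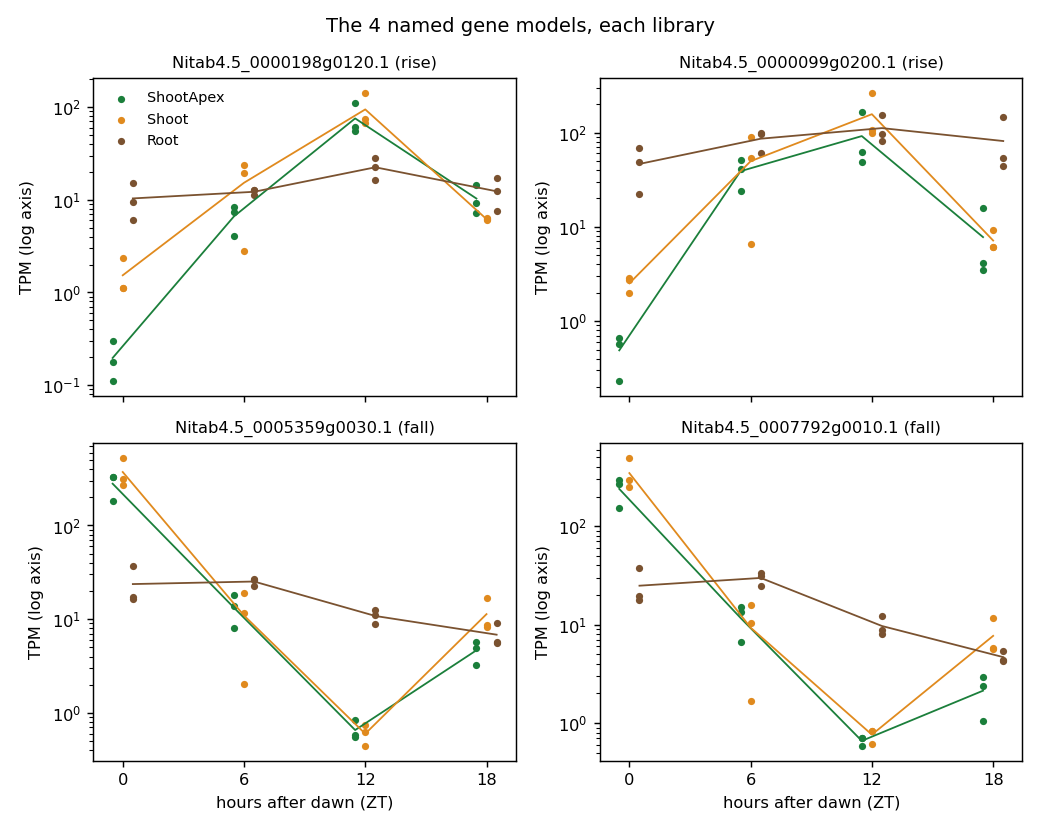
Levels of the 4 named gene models, in TPM on a log axis, against hours after dawn, with a point for each library of shoot apex (green), whole shoot (orange) and root (brown) and a line through the group means of 3 libraries (tissues are shifted sideways so that points do not hide each other). In shoot apex the rising models go from under 1 TPM at dawn to means of 75.6 and 91.8 TPM at ZT12 and the falling ones from means of 279 and 239 TPM to under 1 TPM, while root moves over a much narrower range.

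The levels of all called gene models at the other times are given here as a description. The gene models were chosen for their difference between dawn and ZT12, and that choice favours these times as the extremes of the course. The 1168 higher gene models together took 1.06% to 1.23% of all TPM in the dawn libraries and 3.87% to 4.47% at ZT12. At ZT6 they took 2.48% to 2.99% and at ZT18 2.13% to 2.68%, values between those of dawn and ZT12. The 1340 lower gene models took 6.82% to 8.58% at dawn, 4.55% to 5.93% at ZT6, 2.00% to 2.71% at ZT12 and 2.80% to 3.97% at ZT18. Their share thus fell through the first 12 h of light and was slightly higher again at dusk. Of the higher gene models, 914 had their highest group mean at ZT12, 232 at ZT6 and 22 at ZT18. Of the lower ones, 1262 had their highest group mean at dawn, and 1123 had their lowest at ZT12, 135 at ZT18 and 82 at ZT6. Over all tested gene models the highest mean was at dawn in 28.2%, at ZT6 in 29.8% and at ZT12 in 22.7%, and the lowest was at dawn in 33.9%, at ZT6 in 32.7% and at ZT12 in 19.0%. The choice of the gene models leaves out dawn as the highest time of the higher ones and ZT12 as that of the lower ones.

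ZT18 was compared with ZT6 in the shoot apex as a test that shares no library with ZT12 against dawn. Over all tested gene models 217 (0.487%) were higher and 404 (0.906%) lower at ZT18, 1.39% together, by edgeR's quasi-likelihood test. The libraries of these times also differed in the length of the models counted. With the inverse length of each library as a covariate 611 gene models were called, against 621. Of the 1168 gene models that were higher at ZT12 than at dawn, 85 (7.28%) were lower and 42 (3.60%) higher at ZT18 than at ZT6. Of the 1340 lower gene models, 118 (8.81%) were lower and 25 (1.87%) higher at ZT18. The median log2 difference was -0.17 in the higher and -0.24 in the lower gene models, against 0.01 over all tested. The share called was above the background in both directions and for both the higher and the lower gene models. Both comparisons took the spread of a gene model from the same fit over all 36 libraries. A gene model of small spread passes more readily in both, so nothing is read from this excess. A lower level at ZT18 was the more frequent one in each, as it was over all tested.

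**Figure D3:**
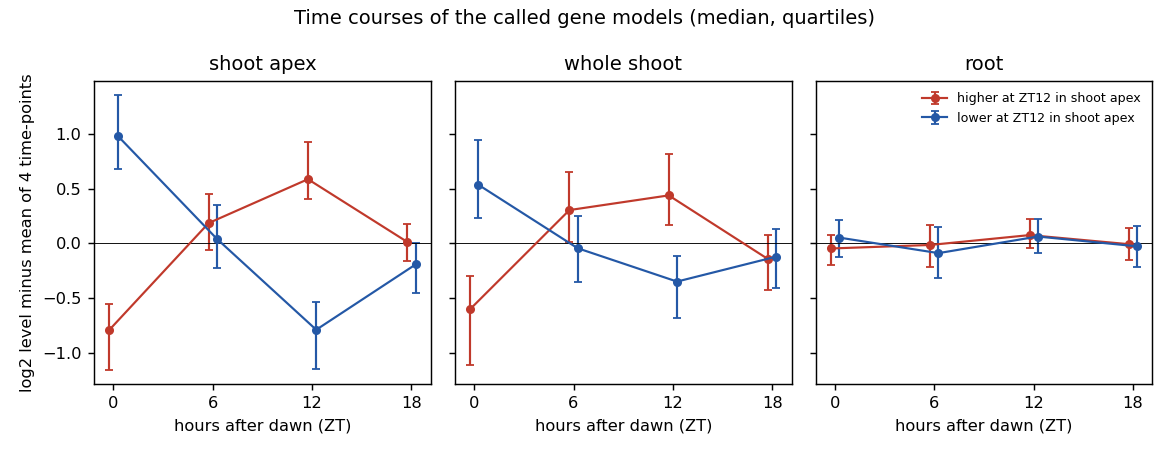
Median level (points) and quartiles (bars) of the gene models called higher (red, 1168) or lower (blue, 1340) at ZT12 in the shoot apex, as log2 CPM minus the mean of the 4 time-points, in shoot apex, whole shoot and root. In shoot apex the medians run from -0.79 to 0.59 for the higher and from 0.99 to -0.79 for the lower models between dawn and ZT12, in whole shoot from -0.60 to 0.44 and from 0.54 to -0.35, and in root they stay within 0.09 of zero.

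Whole shoot was sampled at the same times in separate libraries, and it shared the direction of most of these changes. The labels and the paper's methods do not say whether whole shoot still held the shoot apex. How far the shared changes rest on shared tissue was not tested. In whole shoot 1121 gene models (2.51%) were higher and 719 (1.61%) lower at ZT12 than at dawn, 4.13% together. Of the 1168 gene models higher in shoot apex, 592 (50.7%) were also called higher in whole shoot and 1 was called lower. Of the 1340 lower in shoot apex, 418 (31.2%) were also called lower and 0 were called higher (edgeR's quasi-likelihood test). Without ZT12 replicate 1, 5 gene models were called in opposite directions in both tissues, and DESeq2 gave 7. The gene models called in both tissues made up 40.3% of those called in shoot apex and 54.9% of those called in whole shoot. Whether or not they passed the test, 93.5% of the higher gene models had a positive and 91.9% of the lower ones a negative log2 fold change in whole shoot, against 42.8% positive and 56.5% negative over all tested. The median log2 fold change in whole shoot was 1.06 for the higher and -0.92 for the lower gene models, against -0.07 over all tested. These are smaller than in shoot apex, from whose own differences the gene models were chosen, and that choice by itself favours large values there.

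A test of the difference between the tissues gave few gene models. The change from dawn to ZT12 differed between shoot apex and whole shoot in 20 of 44594 gene models by edgeR's quasi-likelihood test (0.0448%). The change was more positive in shoot apex in 11 of them (0.0247%) and more negative in 9 (0.0202%), and 3047 gene models had an unadjusted p under 0.05. DESeq2 gave 200 and limma on log2(TPM + 1) gave 1. The number without a single shoot apex library ran from 5, without ZT0 replicate 2, to 32, without ZT0 replicate 3. It was 7 without ZT0 replicate 1, and 29, 10 and 6 without ZT12 replicates 1, 2 and 3. In 15 of the 20 the change in shoot apex was called, and in 6 the fitted changes of both tissues had opposite signs. The 11 had a median log2 fold change of 0.98 in shoot apex and -1.38 in whole shoot, and the 9 had medians of -3.27 and -0.43. Among the 4 named gene models, the rise of Nitab4.5_0000198g0120.1 was larger in shoot apex by a log2 difference of 2.56 (standard error 0.50, adjusted p = 0.0483, edgeR). In whole shoot it rose from 1.11, 2.38 and 1.11 TPM to 142.55, 74.25 and 66.76 TPM, so the tissues differed at dawn, where shoot apex held 0.30 TPM or less, and overlapped at ZT12. This difference passed the threshold in 2 of 16 alternatives, with adjusted p from 0.0272 to 1.0 (edgeR, DESeq2 and limma).

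In root few gene models passed the test. Root had 2 gene models higher (0.00448%) and 0 lower at ZT12 than at dawn (edgeR's quasi-likelihood test), while DESeq2 called 47. By edgeR 1961 of the 44594 tested had an unadjusted p under 0.05. Such values also arise without any change, so nothing is read from them. Of the gene models higher in shoot apex 1 was called in root, and of the lower ones 0. The median log2 fold change in root was 0.11 for the higher and 0.00 for the lower gene models, against 0.02 over all tested. The log2 fold change in root was positive in 64.3% of the higher gene models, against 52.5% over all tested, and negative in 48.5% of the lower ones, against 46.9%. The called gene models were not silent in root. The higher ones had a median of 9.47 TPM there at dawn and 10.9 TPM at ZT12, against 4.20 and 14.5 TPM in shoot apex, and the lower ones had 8.37 and 9.0 TPM in root against 16.3 and 5.0 TPM in shoot apex. A mean of under 1 TPM in root was found for 9.85% of the higher, 16.2% of the lower and 11.4% of all tested gene models. The change from dawn to ZT12 differed between shoot apex and root in 806 gene models (1.81%) by edgeR's quasi-likelihood test, and in 519 without shoot apex ZT0 replicate 1. The change was more positive in shoot apex in 317 (0.711%) and more negative in 489 (1.1%). Of the 806, 300 were higher in shoot apex with a more positive change there, and 439 were lower with a more negative change. Root libraries of the same group also differed in the length of the models counted. With the inverse length of each library as a covariate 834 gene models differed between shoot apex and root, and 2 were called in root.

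The 4 named gene models moved in root in the same direction as in shoot apex by amounts that did not pass the test. Nitab4.5_0000198g0120.1 held 6.13, 15.35 and 9.57 TPM at dawn and 16.42, 22.82 and 28.07 TPM at ZT12 in root, a log2 fold change of 1.09 (standard error 0.33, adjusted p = 0.576, edgeR). Nitab4.5_0000099g0200.1 had a log2 fold change of 1.24 (adjusted p = 0.914, edgeR). Nitab4.5_0005359g0030.1 had one of -1.12 (adjusted p = 0.321, edgeR), from 17.46, 16.46 and 37.18 TPM to 11.21, 8.83 and 12.43 TPM. Nitab4.5_0007792g0010.1 had one of -1.36 (adjusted p = 0.173, edgeR). The level in root at dawn was above that in shoot apex for both rising models and below it for both falling ones, without overlap of the libraries. In whole shoot the falling models went from means of 372 and 346 TPM to 0.60 and 0.763 TPM, and their log2 fold changes of -9.30 and -8.82 differed from those of shoot apex by 0.38 (standard error 0.40) and 0.16 (standard error 0.43), with adjusted p of 1 for each (edgeR).

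**Figure D4:**
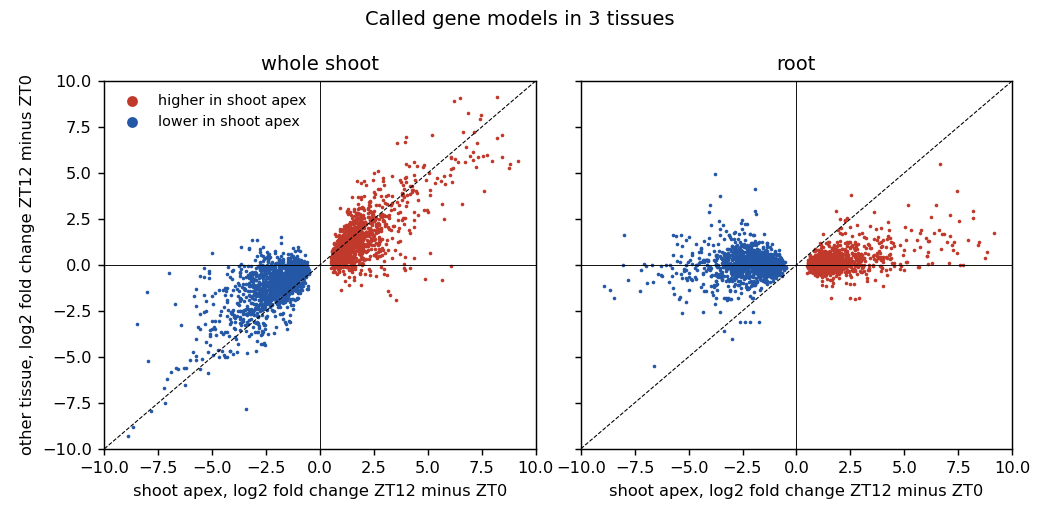
Each point is a gene model called higher (red) or lower (blue) at ZT12 in shoot apex, with its log2 fold change there on the x axis and that of whole shoot (left) or root (right) on the y axis, and the dashed line marks equal change. In whole shoot 93.5% of the red points lie above and 91.9% of the blue points below zero, and in root the medians are 0.11 and 0.00.

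The study's rule for expression, TPM of at least 1 in each of the 3 replicates, gave 34000 gene models at dawn and 35187 at ZT12 in the shoot apex, of which 32911 were shared. Under a stricter rule, at ZT12 265 of the 69500 gene models (0.381%) reached 1 TPM in all 3 libraries and in 0 of the 3 dawn libraries, and 162 (0.233%) did the reverse. A TPM under 1 is not an absence of reads, since Nitab4.5_0005359g0030.1 is among the 162 with expected counts of 17 to 27 at ZT12. Of the 265, 129 were called higher, and of the 162, 105 were called lower. Most were weakly expressed, with median means of 1.9 TPM at ZT12 and 2.30 TPM at dawn, while the highest means were 95.2 and 279 TPM. In root 170 of the 265 and 100 of the 162 had a mean of at least 1 TPM, while 11.4% of all tested gene models had a mean under 1 TPM there. These shares are not alike. The 265 and 162 were drawn from all 69500 gene models and chosen for a low level in shoot apex, whereas the tested gene models passed a filter. The number of gene models whose TPM did not overlap between the groups was 6964 with ZT12 higher (15.6% of those tested) and 2438 with ZT12 lower (5.47%). Of the gene models called by the test, 1156 of the 1168 higher and 1033 of the 1340 lower were among these, so the TPM of the other 307 lower ones overlapped. On the scale of TPM the median of all tested gene models was 7.95 at ZT12 against 6.51 at dawn, whereas the counts normalised by edgeR had a median log2 fold change of 0.03, so TPM is given here as a level and the counts carry the tests.

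Called gene models were found at every level and length, in unequal shares. Among the 1597 gene models with a mean of at least 100 TPM over the 6 libraries, 117 (7.33%) were lower and 41 (2.57%) higher at ZT12, and without ZT12 replicate 1 these were 79 (4.95%) and 44 (2.76%). From 5 to 20 TPM, the bin with the most gene models (16959), 2.81% were lower and 2.95% higher. Under 1 TPM, 1.58% were lower and 0.94% higher. Among gene models of at least 2000 bases, 249 (3.24%) were higher and 113 (1.47%) lower, with a median log2 fold change of 0.26 over all 7683 of them. Without ZT12 replicate 1 this median was -0.05 and the shares were 2.13% and 1.55%, so the surplus of rises among long gene models was smaller without that library. With the inverse length of each library as a covariate and all libraries kept, the median was 0.20 and the shares were 3.21% and 1.73%. From 1000 to 2000 bases 3.43% were higher and 3.99% lower, and 2.82% and 3.46% without ZT12 replicate 1.

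**Figure D5:**
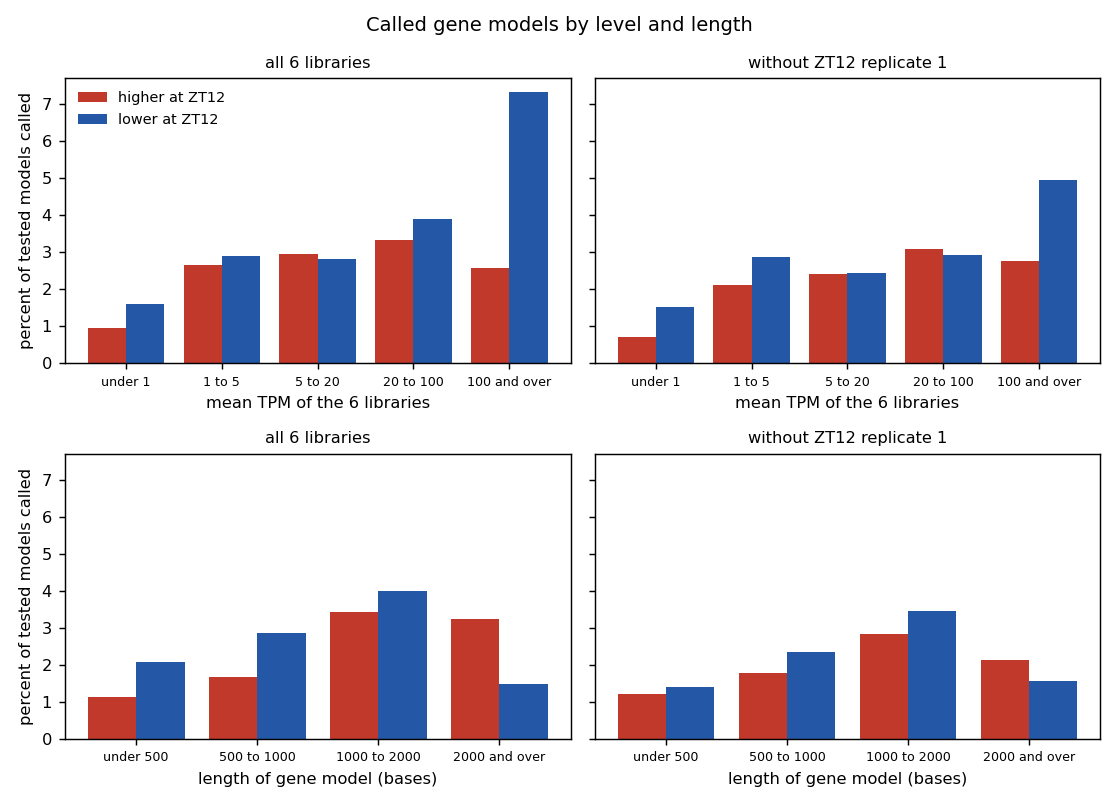
Percent of tested gene models called higher (red) or lower (blue) at ZT12, by mean TPM of the 6 shoot apex libraries (top) and by length (bottom), with all 6 libraries (left) and without ZT12 replicate 1 (right). Lower calls take 7.33% of the gene models of at least 100 TPM, or 4.95% without that library, and higher calls take 3.24% or 2.13% of those of at least 2000 bases.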

How the data were processed

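Single reads of 100 bases were trimmed by the authors with fastq-mcf and aligned to the gene models predicted on assembly Nitab4.5. Levels were then estimated by RSEM, and the submitters' processing notes name RSEM 1.2.7 and Bowtie 1.1.0. The deposited expected counts are estimated counts without normalization. The deposited TPM is scaled by the authors within each library, by model length, since effective length equals full length. A table of the whole series repeats the expected counts and was not used, and FPKM was not used.

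Expected counts were rounded, filtered by filterByExpr (minimum count 10, minimum total 15), normalised by TMM and fitted with edgeR 4.0.16 (glmQLFit, glmQLFTest) over the 12 groups of tissue and time-point and all 36 libraries, with no replicate block. The totals ran from 4125090 to 21265992 expected counts over the 36 libraries. A standard error is the log2 fold change divided by the square root of the F statistic. Tests were two-sided, with a Benjamini-Hochberg adjusted p threshold of 0.05, in R 4.3.3 with DESeq2 1.42.0 and limma 3.58.1 as alternatives. Levels were summarised in Python 3.11.15 with pandas 2.3.3. The named gene models are the 2 largest rises and 2 largest falls among called gene models with non-overlapping TPM, a mean of at least 10 TPM in the higher group and a summed expected count of at least 10 in the lower group. The members, lists and tests were chosen with earlier results of these data known. The fit was tested on simulated data first. Of the libraries, 0 pairs held identical counts. Lists of clock, light, photosynthesis, starch, meristem, cell cycle and root genes had been drawn up and could not be applied without gene names. Alternatives covered normalisation, test, filter, libraries in the fit, dispersions, length of the models counted, pseudocounts of 1 and 0.1, the replicate block and each shoot apex library left out.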

Additional observations from a re-analysis of the deposited data

Results flagged for a closer look

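The change from dawn to ZT12 differed between shoot apex and whole shoot in 20 gene models and between shoot apex and root in 806, by a test of the difference itself (quasi-likelihood test of edgeR). For Nitab4.5_0000198g0120.1 the log2 difference of the changes was 2.56 between shoot apex and whole shoot and 7.34 between shoot apex and root. For Nitab4.5_0000099g0200.1 it was 6.06 against root. For Nitab4.5_0005359g0030.1 and Nitab4.5_0007792g0010.1 it was -7.79 and -7.31 against root. The named gene models were chosen for the largest changes in shoot apex, and that choice by itself favours large differences from the other tissues. The difference of Nitab4.5_0000198g0120.1 from whole shoot was close to the threshold (adjusted p = 0.0483, edgeR) and did not pass it in 14 of 16 alternatives. The other named gene models did not pass the test against whole shoot.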

How the results depend on the processing

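The counts moved most with fewer libraries in the fit, which also tested fewer gene models, and with limma on TPM, which changed test and unit together. The 1168 higher and 1340 lower gene models, 2508 in all, were 728 higher with the 12 shoot apex libraries alone and 1093 in all (440 higher, 653 lower) with the 6 alone. limma on log2(TPM + 1) called 635 (355 and 280) and on log2(TPM + 0.1) 404 (220 and 184), where the median of all gene models moved to 0.17 and 0.24. Of the 2508, 1008 were called with the 6 libraries alone, 2439 by DESeq2, which called 3332, and 554 by limma on log2(TPM + 1). With each shoot apex library left out in turn the count ran from 1553 to 2138, with 720 to 988 higher and 730 to 1311 lower. The difference between shoot apex and whole shoot was called in 7 gene models without the filter, 200 by DESeq2 and 1 and 0 by limma with pseudocounts of 1 and 0.1, and in 5 to 32 with a library left out. Between shoot apex and root the numbers were 1316 by DESeq2, 140 and 85 by limma and 519 to 809 with a library left out. ZT18 against ZT6 gave 408 with the 12 libraries, 1022 by DESeq2, 228 and 152 by limma, and 576 to 644. Whole shoot at ZT12 against dawn gave 587 and 397 by limma and 1717 to 1838. Root, with 2, gave 1 without the filter, 0 with a stricter filter or the replicate block and 47 by DESeq2. It gave 21 and 5 by limma and 0 to 3 with a library left out. Without 5 root and shoot libraries for which the paper lists a low share of reads mapped it gave 1. Of these 5, root ZT18 replicate 2 holds 13332241 expected counts in the deposited data. Calls in opposite directions in shoot apex and whole shoot numbered from 0 to 7 over the alternatives. The cause of these shifts was not tested. All 72 alternatives of the 4 named gene models kept the direction and the call. The 4 were chosen for the largest changes in these same libraries, so this says nothing on the other called gene models.

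Replicate numbers are shared between groups. Deviations of ZT0 and ZT12 replicates of the same number correlated at -0.11, -0.42 and 0.57. Not every library correlated best with its own number, as ZT12 replicate 1 did so with ZT0 replicate 2 (0.60). Deviations over 3 replicates cannot decide whether the numbers pair the libraries. With the replicate block 2385 gene models were called in shoot apex (1097 higher, 1288 lower), 17 against whole shoot, 751 against root, 571 between ZT18 and ZT6 and 1728 in whole shoot.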

Other observations

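Gene models that follow each other on a scaffold were set side by side by their IDs. Of 26168 adjacent pairs with both models tested, 92 (0.352%) had both models called in shoot apex between dawn and ZT12. The 5.62% called over all tested gene models is a share of single models, so it is no background for pairs. Nothing is read from the share of pairs, and it was not tested. In 67 of the 92 pairs both moved in the same direction, 21 upwards and 46 downwards, and in 25 they moved in opposite directions. Adjacent models can be copies of one another, between which RSEM shares reads, and their sequences were not compared. The called gene models lay on 1995 of 10912 scaffolds with a tested model, with at most 6 on a single scaffold.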
